A study of Mus musculus with 9 samples.

Results

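The insulin-like growth factor (IGF) axis was followed through 10 genes, namely the ligands Igf1 and Igf2, the receptor Igf1r, the binding proteins Igfbp2, Igfbp3, Igfbp4, Igfbp5 and Igfbp6, the protease Pappa and the protease inhibitor Stc2. The genes were found by symbol among the 54532 genes of the deposited table, and each of the 10 matched a single row. The list was chosen by a look at the counts and FPKM of all 9 libraries, so which of them moved is a description of these libraries and not independent evidence about the axis.

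RNA sequencing covered 3 groups of mouse cardiosphere-derived cells from C57BL/6 hearts, with 3 libraries in each. Primary cells (pECDC) were grown out of adult epicardial explants, and the labels name the tissue only as heart ventricle and number these libraries as passage 0, whereas the study's methods give a later passage. Immortalized cells (iECDC) carry human TERT, the catalytic subunit of telomerase, delivered by lentivirus with puromycin selection. They are a single line, sequenced at passage 30. The last group received SB431542, which blocks the kinase of the type I TGF-β receptor, and both other groups were untreated. By the labels the treated cells are iECDC at passage 30 after 3 days of inhibitor, but the study's methods describe an epithelial clone raised from pECDCs. The labels therefore set the comparison with iECDC, and the comparison with pECDC is given beside it. Treatment and the origin of the cells cannot be told apart in either.

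Cdkn2a, a cell cycle inhibitor, separated pECDC from both other groups. It had 550, 407 and 562 counts in pECDC replicates 1, 2 and 3, then 0, 1 and 0 in iECDC and 0 in every treated library. The treated libraries thus lacked the gene as the iECDC libraries did. Of 5 epithelial markers, Cdh1, Epcam, Krt8 and Krt18 stayed at or under 3 counts in every treated library. The other marker, Krt19, had 758, 1480 and 765 counts in treated replicates 1, 2 and 3. Its level of 22.8 to 37.9 FPKM there was above pECDC (18.2 to 19.5) and overlapped iECDC (28.8 to 31.2). Summed counts ran from 16568306 to 23951392 per library. iECDC replicate 3 and treated replicate 2 stood apart from their groups, with chi-square per degree of freedom of 24.9 to 30.8 and 70.3 to 71.5 against their partners, whereas all other pairs lay between 2.70 and 4.61. The mesenchymal markers summed to 1355 to 2182 FPKM over all 9 libraries, and the endothelial markers to at most 0.165 FPKM.

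IGF-I and IGF-II act through the IGF-I receptor, a tyrosine kinase that signals to PI3K and AKT. Outside the cell most IGF is held by binding proteins, which keep it from the receptor until they are cleaved. PAPP-A, the product of Pappa, is a secreted metalloprotease that cuts IGFBP-4 when IGF is bound to it, and also IGFBP-5, whereas stanniocalcin-2, the product of Stc2, binds PAPP-A and blocks its activity. In the heart IGF-I is known as a survival and growth signal for myocytes, and CDCs are known to act largely through secreted factors.

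All 10 members are protein-coding genes with the same start and end in the deposited table as in the GENCODE annotation of GRCm38. Pappa lies on chr4:65124174-65357509 (plus strand), Igfbp4 on chr11:99041244-99054392 (plus), Stc2 on chr11:31357307-31370074 (minus) and Igfbp3 on chr11:7206086-7213923 (minus). Igfbp2 (chr1:72824503-72852474, plus) and Igfbp5 (chr1:72857932-72874884, minus) are neighbours that face each other. Igf1 lies on chr10:87858265-87937042 (plus), Igfbp6 on chr15:102144362-102149511 (plus), and Igf2 (chr7:142650766-142666816, minus) and Igf1r (chr7:67952827-68233668, plus) share a chromosome.

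Promoter sequences are shown for Igfbp4, Stc2 and Igfbp2, the members that passed the test as higher in treated cells in both comparisons of the treated group. Each is the 250 bases before the RefSeq start site on GRCm38.p6, on the gene's own strand. RefSeq windows were matched for 9 of the 10 members, and Pappa was not matched. Capitals mark a TATA box in Igfbp4 (chr11:99040994-99041243, plus strand), a reversed CCAAT box in Stc2 (chr11:31370062-31370311, minus strand) and an E-box in the first of 2 windows of Igfbp2 (chr1:72824230-72824479, plus strand).
Igfbp4: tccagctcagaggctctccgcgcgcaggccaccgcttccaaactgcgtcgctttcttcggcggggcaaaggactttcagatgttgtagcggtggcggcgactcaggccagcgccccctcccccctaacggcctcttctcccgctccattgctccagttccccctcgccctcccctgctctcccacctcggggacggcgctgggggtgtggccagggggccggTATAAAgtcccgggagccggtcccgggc
Stc2: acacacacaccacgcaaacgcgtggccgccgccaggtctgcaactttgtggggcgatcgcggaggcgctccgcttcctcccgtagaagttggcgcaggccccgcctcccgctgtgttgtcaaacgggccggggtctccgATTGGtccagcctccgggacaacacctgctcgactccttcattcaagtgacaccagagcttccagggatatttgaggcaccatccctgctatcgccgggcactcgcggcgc
Igfbp2: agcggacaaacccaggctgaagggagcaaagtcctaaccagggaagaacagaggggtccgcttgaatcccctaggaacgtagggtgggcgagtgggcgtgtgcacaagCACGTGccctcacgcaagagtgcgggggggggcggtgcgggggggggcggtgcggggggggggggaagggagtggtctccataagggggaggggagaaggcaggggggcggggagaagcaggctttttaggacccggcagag
Both strands were searched for 6 motifs. TATAAA was present in 12.4% of 32851 promoter windows of this length, CCAAT in 33.8%, CACGTG in 6.02%, the AP-1 element TGACTCA in 4.46%, the SMAD element CAGACA in 17.1% and the longer SMAD element GTCTAGAC in 0.167%. The TATAAA of Igfbp4 began at position -28 from the start, the CCAAT of Stc2 at -111 and the CACGTG of Igfbp2 at -142, and the second Igfbp2 window held TGACTCA at -39. The 3 promoters printed shared none of the 6 motifs. CAGACA was found in Igf2 windows only among the members, and no window of a member held GTCTAGAC. None of the 6 was found in Igf1r, Igfbp3 or Igfbp5. All 3 printed windows were richer in G and C (64.4 to 69.2%) than the median promoter window (52.4%). So were Igf1r (77.6%), Igfbp3 (73.2%), Igfbp5 (58.8%), the second Igfbp2 window (56.4%) and Igf1 (52.8%). Igfbp6 (49.6%) was not, and the Igf2 windows ran from 47.6 to 68.8%. Richness in G and C was thus not particular to the printed windows.

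Igfbp4 was by far the most abundant member in all 3 groups. Levels are compared here in FPKM, reads per kilobase of gene length scaled to library size, because genes differ in length. Mean Igfbp4 was 317 ± 8.88 FPKM in pECDC, 254 ± 19.7 in iECDC and 466 ± 41.4 in treated cells (SD, n = 3 each), which placed it at rank 119, 171 and 63 of 22046 protein-coding genes. In pECDC the order below it was Pappa, Igf1r, Igf1, Stc2, Igfbp3, Igfbp2, Igfbp5, Igfbp6 and Igf2, and no neighbours overlapped between libraries. In iECDC the order began Igfbp4, Pappa, Igf1r, Stc2 and Igf1, where the ranges of Stc2 and Igf1 overlapped, and Igfbp3, Igfbp6, Igfbp5, Igfbp2 and Igf2 followed with every pair of neighbours overlapping. In treated cells Stc2, Igf1r and Igfbp2 came next after Igfbp4, then Igfbp3, Igfbp6, Igf1, Pappa, Igf2 and Igfbp5. The ranges of Igfbp6 and Igf1, of Igf1 and Pappa and of Pappa and Igf2 overlapped in the treated libraries. Pappa thus stood in second place in both untreated groups and among the lowest members in treated cells.

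**Figure D1:**
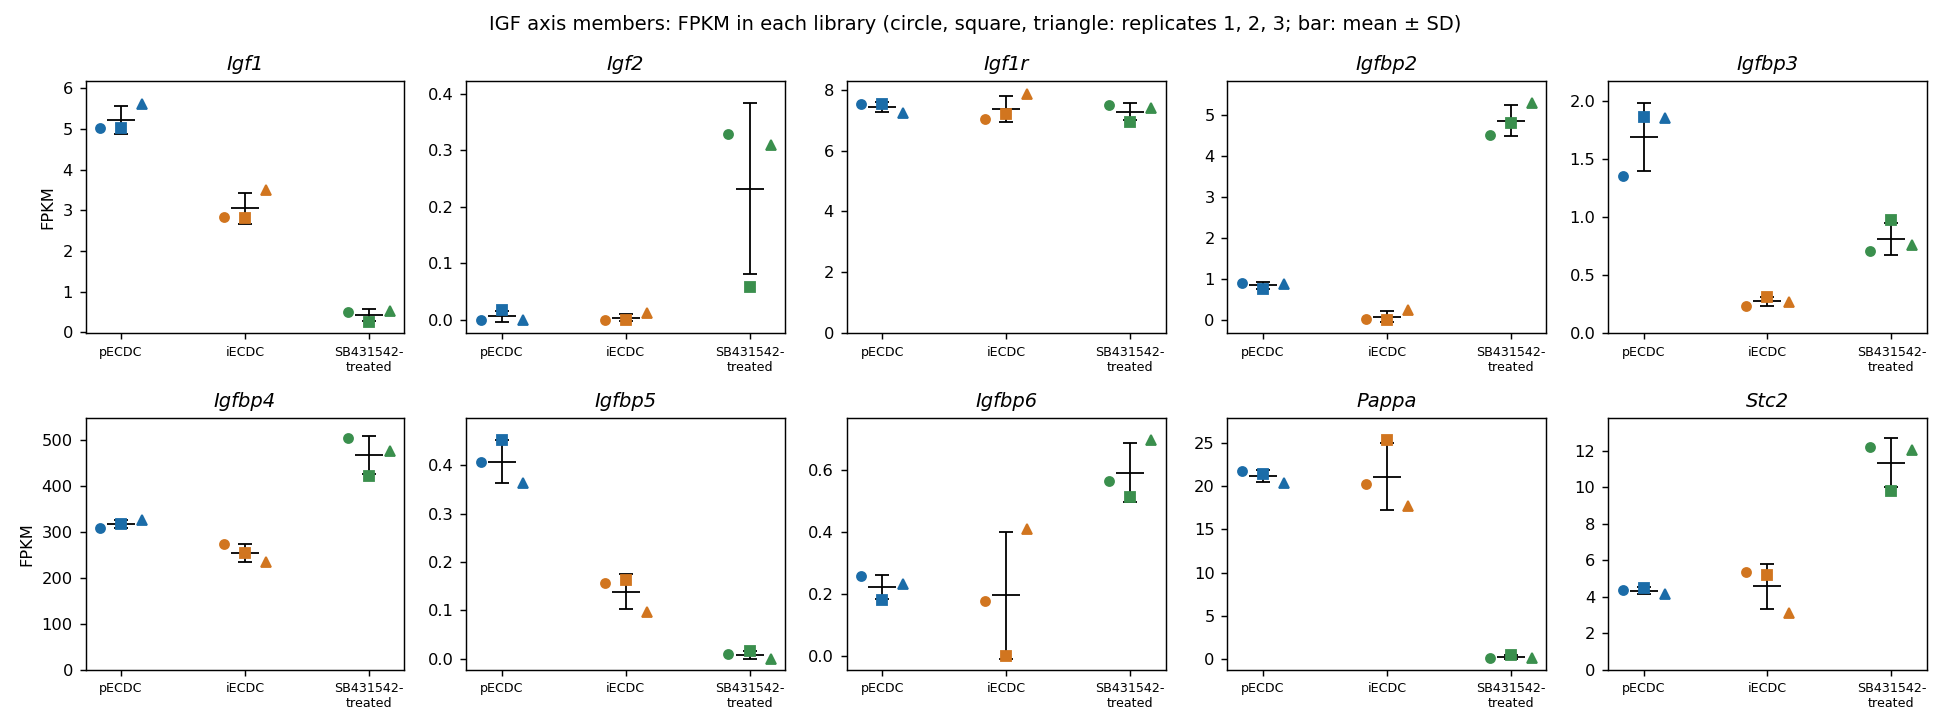
FPKM of the 10 members in each library, 1 panel per gene with its own linear axis, by group (pECDC, iECDC, SB431542-treated). Points are single libraries and bars are mean ± SD of 3. Pappa lies between 17.7 and 25.3 FPKM in the 6 untreated libraries and at most at 0.496 in the treated ones, whereas Igf1r lies between 6.95 and 7.85 in all 9.

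Counts were tested gene by gene across the whole table with edgeR's quasi-likelihood test, Benjamini-Hochberg adjustment over all tested genes and a threshold of 0.05 on the adjusted p-value. Log2 fold changes below are edgeR estimates with their standard error (SE). The 3 comparisons share libraries and so are not independent of each other. In iECDC against pECDC, 8 members passed the filter on low counts, of which 5 were lower (Igf1, Igfbp2, Igfbp3, Igfbp4, Igfbp5), 0 were higher and 3 did not pass the test. Of all 13752 genes tested there 16.4% were called, 7.21% higher and 9.21% lower. In treated cells against iECDC, 7 members were tested, with 4 higher (Igfbp2, Igfbp3, Igfbp4, Stc2), 2 lower (Igf1, Pappa) and 1 not called, beside 30.0% of 13559 genes called, 16.0% higher and 14.0% lower. In treated cells against pECDC, 9 were tested, with 4 higher (Igfbp2, Igfbp4, Igfbp6, Stc2), 4 lower (Igf1, Igfbp3, Igfbp5, Pappa) and 1 not called, beside 34.8% of 14015 genes, 17.9% higher and 17.0% lower. Igf2 was filtered out in every comparison, Igfbp6 in both comparisons with iECDC and Igfbp5 in treated against iECDC. Igfbp2 in both comparisons with iECDC, and Igfbp5 and Igfbp6 in treated against pECDC, passed the filter only through their higher group. Their calls enter the counts and medians given here, but they describe these libraries and are not support. The median log2 fold change over the tested members was -0.56, 0.89 and -0.02 in these comparisons, and that over all tested genes was 0.00, 0.00 and 0.01. The labels do not say whether replicates came from separate cultures or animals, and the study's methods state fewer biological replicates per condition than there are libraries. All libraries were used as replicates, so p-values measure the spread between these libraries, which may be technical.

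**Figure D2:**
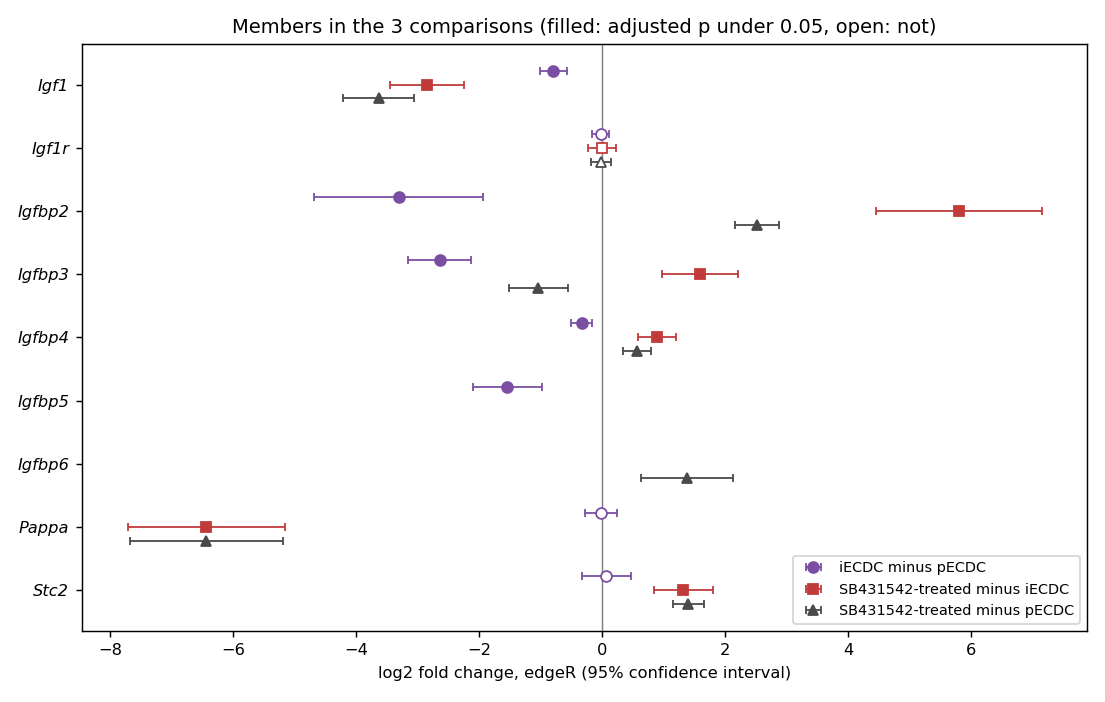
Log2 fold changes of the members (horizontal axis) with 95% confidence intervals from edgeR in the 3 comparisons, filled where the adjusted p-value was under 0.05. Pappa reached -6.44 in both comparisons of treated cells, and Igf1r lay between -0.03 and 0.00 in all 3. Only fits of genes that passed the filter are drawn, and Igfbp5 against treated cells is left out because those libraries hold at most 2 counts.

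Among the ligands, Igf1 was highest in pECDC and lowest in treated cells. It measured 5.02, 5.03 and 5.61 FPKM in pECDC, 2.83, 2.82 and 3.49 in iECDC, and 0.489, 0.250 and 0.525 in treated replicates 1, 2 and 3. The 3 groups did not overlap, and treated replicate 2 was the lowest library. Igf1 was 1.73-fold lower in iECDC than in pECDC (log2 fold change -0.79, SE 0.0962, edgeR adjusted p = 0.000822). In treated cells it was 7.19-fold lower than in iECDC (-2.85, SE 0.265, adjusted p = 0.000685) and 12.4-fold lower than in pECDC (-3.63, SE 0.246, adjusted p = 0.000197). Fewer cells making a transcript and less transcript per cell cannot be told apart in bulk RNA, for this gene and all others. Igf1os, an antisense gene that overlaps Igf1, had at most 4 counts, and whether counting used the strand is not given in the sources used here.

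Igf2, the fetal ligand and an imprinted gene, exceeded 3 counts in the treated libraries only. Its counts were 0, 2 and 0 in pECDC and 0, 0 and 1 in iECDC. Treated replicates 1, 2 and 3 had 33, 7 and 32 counts, or 0.329, 0.0582 and 0.309 FPKM, so replicate 2 was the one nearest to the untreated cells. Mean Igf2 in treated cells was set against a floor of 3 counts per library. It was at least 7.57-fold higher than in iECDC and at least 9.93-fold higher than in pECDC. Treated replicate 2 alone, at 0.0582 FPKM, was much nearer to these floors of 0.0307 and 0.0234 FPKM. With no filter on low counts edgeR gave adjusted p = 1.29e-06 and 0.000912. The same edgeR fits gave Pappa adjusted p = 3.87e-22 and 6.69e-08, far below its values with the filter. P-values with and without the filter are thus not comparable. Of the genes that overlap Igf2, Igf2os had at most 4 counts and Gm49394 and Mir483 had 0. H19, the neighbouring imprinted RNA, had 1 to 7 counts in every library.

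The receptor Igf1r did not pass the test in any comparison. Its FPKM was 7.53, 7.55 and 7.24 in pECDC, 7.05, 7.21 and 7.85 in iECDC and 7.50, 6.95 and 7.40 in treated cells, with all 3 groups overlapping. The log2 fold change was -0.03 in iECDC against pECDC (95% interval -0.17 to 0.12, edgeR adjusted p = 0.806). It was 0.00 in treated cells against iECDC (-0.23 to 0.22, adjusted p = 0.976) and -0.02 against pECDC (-0.18 to 0.14, adjusted p = 0.834). Differences of more than 0.23 in either direction were thus outside all 3 intervals.

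The binding protein transcripts were dominated by Igfbp4, which alone made up 98.5 to 99.8% of the summed FPKM of the 5 Igfbp members in every library. Igfbp4 encodes the main substrate of PAPP-A. It measured 308, 316 and 326 FPKM in pECDC, 274, 254 and 235 in iECDC and 502, 421 and 476 in treated cells. All treated libraries were above all others and all iECDC libraries were the lowest. Igfbp4 rose 1.85-fold in treated cells against iECDC (log2 fold change 0.89, SE 0.136, edgeR adjusted p = 0.00359) and 1.48-fold against pECDC (0.57, SE 0.0952, adjusted p = 0.00485). The decrease in iECDC against pECDC was smaller, 1.26-fold (-0.33, SE 0.0756, adjusted p = 0.0189). That call was lost when pECDC replicate 1, 2 or 3 or iECDC replicate 2 was left out (adjusted p = 0.0770, 0.0934, 0.0978 and 0.0555) and with all 9 libraries in the fit (0.116).

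Igfbp2, a binding protein with affinity for IGF-II, had the largest fitted fold changes among the binding proteins in treated cells against iECDC. It had 41, 28 and 38 counts in pECDC, 1, 0 and 7 in iECDC and 146, 186 and 176 in treated cells, or 0.762 to 0.905, 0 to 0.247 and 4.51 to 5.27 FPKM. The groups did not overlap, and iECDC replicate 3 held nearly all the counts of its group. Igfbp2 fell in iECDC (log2 fold change -3.31, SE 0.607, edgeR adjusted p = 0.00693) and was higher in treated cells than in iECDC (5.80, SE 0.588, adjusted p = 0.000912) and pECDC (2.52, SE 0.154, adjusted p = 0.000138). Without iECDC replicate 3 the first 2 values became -5.58 and 8.04. The size of both differences thus depended on that library, while the direction did not. In both comparisons with iECDC, Igfbp2 passed the filter only through the other group.

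Igfbp3, which encodes the main IGF carrier of the circulation, was highest in pECDC. It had 1.35, 1.86 and 1.86 FPKM there, 0.237, 0.311 and 0.270 in iECDC and 0.711, 0.972 and 0.760 in treated cells. The groups did not overlap, and the treated libraries lay between the others. It fell 6.25-fold in iECDC (log2 fold change -2.64, SE 0.224, edgeR adjusted p = 0.000108). Against iECDC the treated cells were 3.01-fold higher (1.59, SE 0.271, adjusted p = 0.00530), and against pECDC they were 2.05-fold lower (-1.04, SE 0.205, adjusted p = 0.00892).

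Igfbp5, another substrate of PAPP-A, was low in every group, with 60, 54 and 51 counts in pECDC, 19, 16 and 9 in iECDC and 1, 2 and 0 in treated cells. The groups did not overlap. It fell 2.91-fold in iECDC against pECDC (log2 fold change -1.54, SE 0.245, edgeR adjusted p = 0.00346). Treated cells were at or under 3 counts, so Igfbp5 was at least 15.3-fold lower than the mean of pECDC (edgeR adjusted p = 0.000485). It was at least 5.21-fold lower than the mean of iECDC. With no filter on low counts edgeR gave adjusted p = 9.14e-05 there, which is not comparable with the filtered fits. Against pECDC, Igfbp5 passed the filter only through the pECDC libraries. Igfbp3 and Igfbp5 both fell in iECDC, but treated cells were above iECDC for Igfbp3 and below it for Igfbp5.

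Igfbp6, whose product prefers IGF-II, had 7, 4 and 6 counts in pECDC, 4, 0 and 7 in iECDC and 11, 12 and 14 in treated cells. Treated libraries were above all others, and the untreated groups overlapped. Against pECDC the treated cells were 2.60-fold higher (log2 fold change 1.38, SE 0.320, edgeR adjusted p = 0.0161). Igfbp6 passed the filter there only through the treated libraries. At these counts the call was lost in 6 of 11 alternatives, among them DESeq2 (adjusted p = 0.0780), all 9 libraries in the fit (0.0850) and the fits without pECDC replicate 1, 2 or 3 or treated replicate 3 (0.0568, 0.0682, 0.0671 and 0.0560). Against iECDC, with no filter on low counts, it was not called (adjusted p = 0.0779).

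Pappa fell furthest of the tested members in treated cells against iECDC. It had 5880, 4699 and 5240 counts in pECDC and 4508, 4593 and 3007 in iECDC, or 21.7, 21.4 and 20.3 and 20.3, 25.3 and 17.7 FPKM. Treated replicates 1, 2 and 3 had 14, 115 and 27 counts, or 0.0724, 0.496 and 0.136 FPKM. Untreated libraries did not overlap with treated ones, whereas pECDC and iECDC overlapped. The log2 fold change was -6.44 against iECDC (SE 0.559, 86.6-fold, edgeR adjusted p = 0.000570) and -6.44 against pECDC (SE 0.530, 86.5-fold, adjusted p = 0.000417). This was the second lowest fold change of 13559 genes in the first comparison and the 28th lowest of 14015 in the other. Treated replicate 2 decided the size, since without it the values were -7.64 and -7.65. Between iECDC and pECDC the change was -0.02 (95% interval -0.28 to 0.25, adjusted p = 0.940).

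Stc2 rose where Pappa fell. It measured 4.38, 4.49 and 4.14 FPKM in pECDC, 5.37, 5.18 and 3.13 in iECDC and 12.2, 9.80 and 12.0 in treated cells. Treated libraries were above all others, and within iECDC replicate 3 was the low one. Stc2 was 2.50-fold higher in treated cells than in iECDC (log2 fold change 1.32, SE 0.207, edgeR adjusted p = 0.00383) and 2.63-fold higher than in pECDC (1.40, SE 0.107, adjusted p = 0.000318). Between iECDC and pECDC it was not called (0.07, 95% interval -0.33 to 0.46, adjusted p = 0.830), but without iECDC replicate 3 it was called higher (0.28, adjusted p = 0.00786).

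The balance between substrate, protease and inhibitor transcripts was read as FPKM ratios in each library. The FPKM ratio of Igfbp4 to Pappa was 14.2, 14.8 and 16.0 in pECDC, 13.5, 10.02 and 13.2 in iECDC and 6941, 850 and 3510 in treated replicates 1, 2 and 3. The ratio of Stc2 to Pappa was 0.201 to 0.210 in pECDC, 0.176 to 0.265 in iECDC and 168, 19.8 and 88.7 in treated cells. Stc2 was thus the scarcer transcript of the pair in all 6 untreated libraries and the more abundant in the 3 treated ones. Protein was not measured.

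**Figure D3:**
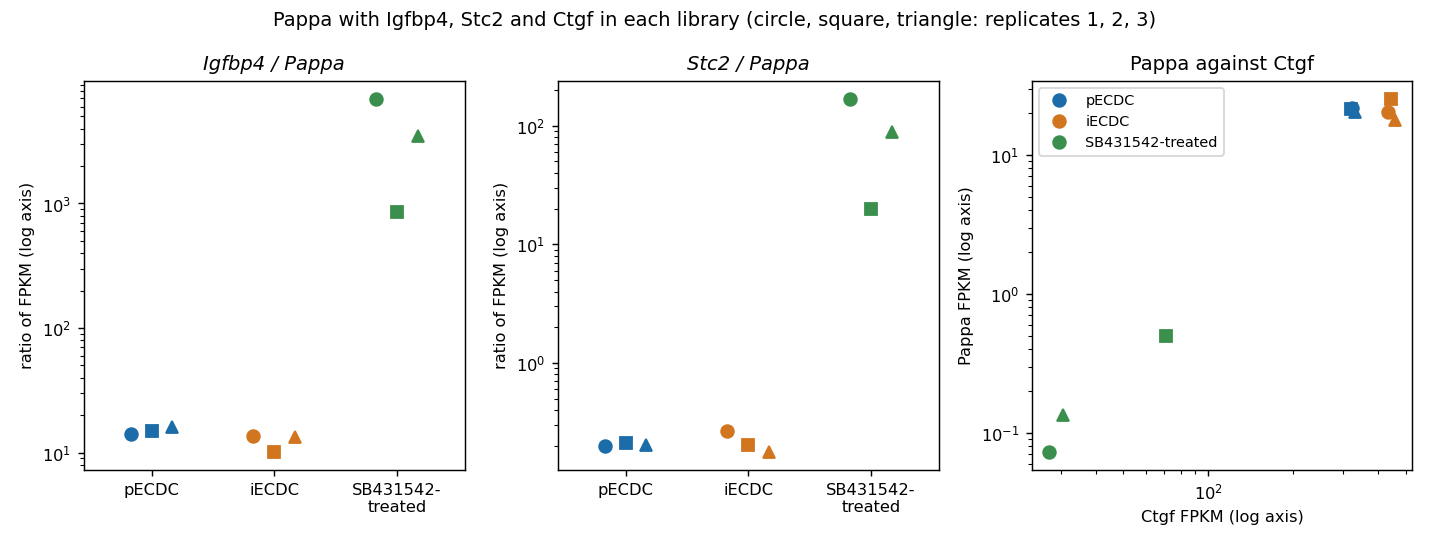
FPKM ratios of Igfbp4 to Pappa (left) and of Stc2 to Pappa (centre) by group on log axes, and Pappa against Ctgf FPKM on log axes (right), 1 point per library. The treated libraries have ratios from 850 to 6941 and from 19.8 to 168, and treated replicate 2 (square) is the treated library nearest to the untreated ones in each panel.

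Response to the inhibitor was read from TGF-β target genes in the same libraries. Ctgf, which encodes a matricellular protein, had 323, 320 and 331 FPKM in pECDC, 431, 442 and 459 in iECDC and 27.4, 70.9 and 30.7 in treated replicates 1, 2 and 3. The treated libraries were below all others. Ctgf, Smad7 and Skil were lower in treated cells in both comparisons, and Tgfbi was higher than in iECDC. Treated replicate 2, which kept the most Ctgf, also kept the most Pappa, had the least Igf2 and had the lowest Igfbp4 and Stc2 of its group, but it also had the lowest Igf1. The part of this difference in the member values was not tested. Smooth muscle markers summed to 716 to 739 FPKM in pECDC, 814 to 1903 in iECDC and 137 to 324 in treated cells. Nearly all of this was Acta2. Tagln was also lowest in treated cells, but Myh11 overlapped between treated cells (0.117 to 0.158 FPKM) and pECDC (0.150 to 0.218). Epicardial markers summed to 20.2 to 21.2, 19.4 to 25.8 and 26.1 to 45.1, most of it Tbx18. In FPKM, Wt1, Tcf21 and Upk3b were higher in every treated library than in all untreated ones, whereas Tbx18 and Msln overlapped. Tbx18 had 22.9 FPKM in treated replicate 2, within the iECDC range of 18.8 to 25.0. For Wt1, treated replicate 2 and pECDC replicate 1 had 14 counts each (0.107 and 0.0921 FPKM). The part of these markers in the member values was not tested either.

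Another 41 genes of the IGF pathway were read from the same fits. In iECDC against pECDC 33 were tested, with 4 higher and 8 lower, beside 16.4% of all tested genes called. In treated cells against iECDC 32 were tested, with 12 higher and 6 lower, beside 30.0% of all tested genes. Against pECDC 34 were tested, with 10 higher and 8 lower, beside 34.8%. Their median log2 fold change was -0.10, 0.26 and 0.20, and that of all tested genes was 0.00, 0.00 and 0.01. The pathway counts depended on single libraries, as did those of all genes. Without iECDC replicate 3, 19 were called in iECDC against pECDC (4467 of all genes against 2258 with it). Without iECDC replicate 1, 11 were called in treated cells against iECDC (1707 of all genes against 4061 with it). In treated cells against pECDC 30 were called without treated replicate 2 (9188 of all genes against 4881 with it), and 10 without pECDC replicate 1 or 2 (2453 and 2522 of all genes).

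Of the other receptors and binding proteins, Igf2r, Insr and Igfbp7 were abundant enough to be tested. Igf2r, which clears IGF-II, was lower in iECDC than in pECDC (log2 fold change -0.44, SE 0.0735, edgeR adjusted p = 0.00464) and had 42.6, 24.6 and 40.0 FPKM in treated cells, not called in either comparison. Insr, the insulin receptor, was higher in treated cells than in iECDC (0.83, SE 0.167, adjusted p = 0.00947) and pECDC (0.67, SE 0.151, adjusted p = 0.0147). Igfbp7, a low-affinity relative of the binding proteins, was more abundant than Igfbp4 in the untreated cells, with 475 to 499 FPKM in pECDC and 561 to 627 in iECDC. It fell to 98.2, 143 and 104 FPKM in treated cells (log2 fold change -2.36 against iECDC, SE 0.166, edgeR adjusted p = 0.000315, and -2.08 against pECDC, SE 0.145, adjusted p = 0.000211). Treated cells thus had less Igfbp7 and more Igfbp4. Igfbp1 and Insrr had 0 counts in every library, and Igfals and Igfbpl1 were too low to be tested.

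Stc1, the other stanniocalcin and likewise an inhibitor of PAPP-A, changed more than Stc2. It measured 13.0, 12.2 and 13.0 FPKM in pECDC, 1.96, 1.46 and 0.868 in iECDC and 81.1, 28.2 and 84.3 in treated cells, with no overlap between groups. It was lower in iECDC than in pECDC (log2 fold change -3.14, SE 0.201, edgeR adjusted p = 2.21e-05) and higher in treated cells than in iECDC (5.49, SE 0.499, adjusted p = 0.000622) and pECDC (2.35, SE 0.389, adjusted p = 0.00463). Adam12, a membrane protease that can cut IGFBP-3 and IGFBP-5, had 4.10 to 4.51 FPKM in pECDC, 2.76 to 5.77 in iECDC and 0.307, 1.03 and 0.262 in treated cells. It fell in both comparisons of treated cells (-2.83, SE 0.518, adjusted p = 0.00695, and -2.98, SE 0.461, adjusted p = 0.00365). Htra1, a secreted serine protease that can cleave binding proteins, was higher in iECDC than in pECDC (0.60, SE 0.0621, adjusted p = 0.000334). It was also higher in treated cells than in pECDC (0.80, SE 0.194, adjusted p = 0.0194). Pappa2, the paralogue of Pappa, had 2 to 22 counts per library and was not called where it was tested (0.71, SE 0.398, adjusted p = 0.203 in treated cells against pECDC).

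**Figure D4:**
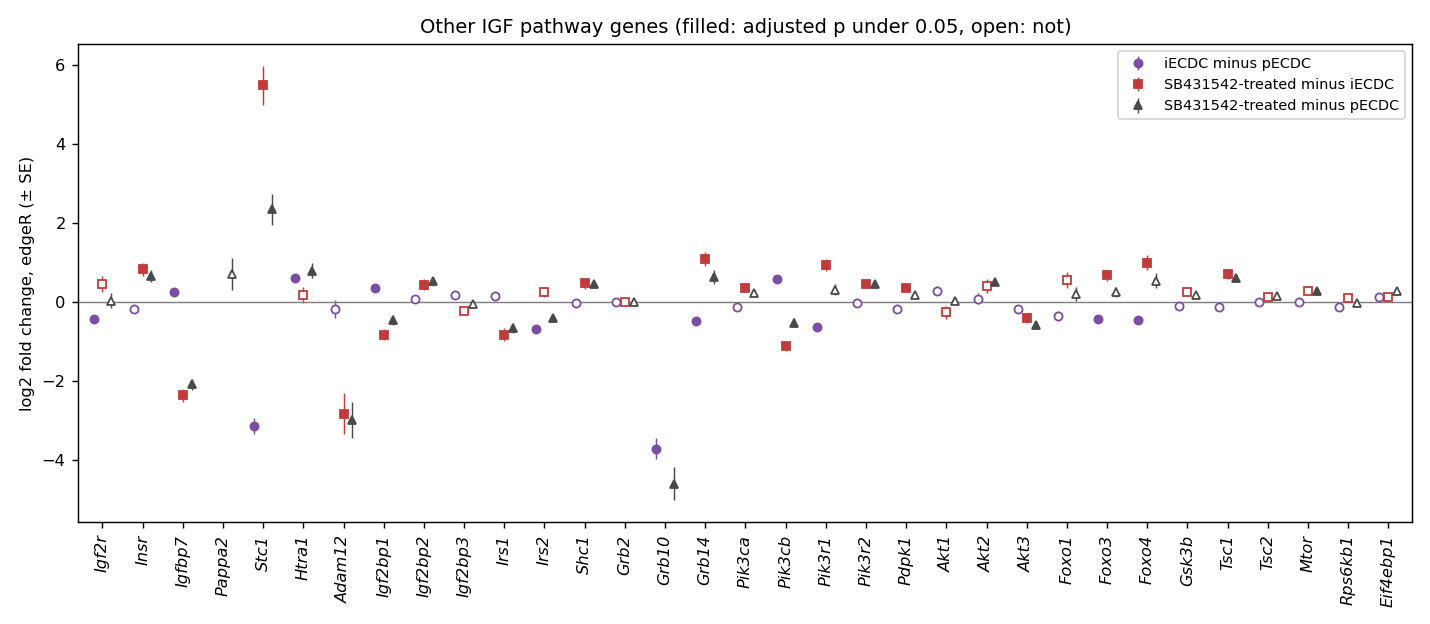
Log2 fold changes ± SE from edgeR (vertical axis) of pathway genes tested in at least 1 comparison, filled where the adjusted p-value was under 0.05. Stc1 reaches 5.49 in treated cells against iECDC, and Grb10 falls to -4.60 against pECDC. Grb10 passed the filter on low counts only through the pECDC libraries.

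Inside the cell, changes past 1 on the log2 scale were few. Grb10, an adaptor that restrains IGF-I receptor signalling, had 120, 102 and 105 counts in pECDC, 10, 3 and 6 in iECDC and 1, 8 and 2 in treated cells. It fell in iECDC (log2 fold change -3.72, SE 0.269, edgeR adjusted p = 4.70e-05) and in treated cells against pECDC (-4.60, SE 0.421, adjusted p = 0.000623). In both comparisons Grb10 passed the filter on low counts only through the pECDC libraries. Its calls enter the pathway counts and medians above, but they describe these libraries and are not support. In treated cells against iECDC, Grb14, a related adaptor, was higher (1.10, SE 0.181, adjusted p = 0.00472) and Pik3cb, a catalytic subunit of PI3K, was lower (-1.12, SE 0.116, adjusted p = 0.000984). Akt1 and Grb2 were not called in any comparison.

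The genes whose profile was most like that of Pappa over the 9 libraries were Fermt2 (Pearson r = 0.996 of log2 CPM), Cdr2 (0.996) and Skil (0.995). For Stc2 they were Peg3 (0.992), Plpp3 (0.991) and Acot1 (0.984), and for Igfbp4 they were H1f0 (0.995), Gpr146 (0.994) and Mnt (0.992). The values are descriptions across 10343 genes with a mean of at least 1 FPKM, and the 9 points share groups and library depth. Mean Fermt2 was 48.4 FPKM in pECDC, 51.8 in iECDC and 24.5 in treated cells, so a profile alike in shape went with a much smaller difference than that of Pappa.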

How the data were processed

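RNA was sequenced from 9 libraries, grouped by their labels. The authors deposited, in 1 table, raw read counts and FPKM for each gene and library. For 179214 of 179215 values above 0 the FPKM equalled the count divided by gene length and a library constant, within a relative tolerance of 0.001. The submitters' processing notes name TopHat2 2.0.9, Bowtie2 2.0.6 and mm9, but 53499 of 54532 genes have the start and end of GENCODE release M21 on GRCm38, and all 10 members do. Labels and methods name different library kits and instruments. The table's log2 fold changes and p-values of the authors' own DESeq comparisons were not used.

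The count test was that of edgeR 4.0.16 under R 4.3.3 (TMM, filterByExpr with a minimum count of 10 and total of 15, quasi-likelihood test, Benjamini-Hochberg adjustment over all tested genes, only the 6 compared libraries). SE is the log2 fold change over the root of F. Total counts were 19462912 to 23951392 in pECDC, 16568306 to 20204216 in iECDC and 17063137 to 20849975 in treated libraries, and the common coefficient of variation was 0.0919, 0.171 and 0.144 in iECDC against pECDC, treated against iECDC and treated against pECDC. Folds against a group with at most 3 counts in each library set the mean FPKM of the other group against 3 counts per library. These floors cover counting error only. Likeness was Pearson's r of TMM log2 CPM.

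The members and lists were chosen with earlier results of these data known. Named were all members, pathway receptors, binding proteins, proteases and stanniocalcin, pathway genes called with an absolute log2 fold change of at least 1, the 3 genes most like Pappa, Stc2 and Igfbp4, TGF-β targets, and Cdkn2a as a check of origin. Akt1 and Grb2 were named after their values were seen. Values of a few genes on these lists are left out here. Alternatives were DESeq2 1.42.0, RLE normalization, no filter, all 9 libraries, the replicate number as a block and leaving out each library. Leaving out iECDC replicate 3 together with treated replicate 2 was chosen after seeing the data. The scripts were first tested on simulated data. Figures used python 3.11.15 and matplotlib 3.10.9.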

Additional observations from a re-analysis of the deposited data

How the results depend on the processing

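Calls and directions of the called members held under every alternative for Igf1, Igfbp2, Igfbp3, Igfbp5 and Pappa, and for Stc2 and Igfbp4 in both comparisons of treated cells. Igfbp2 in both comparisons with iECDC and Igfbp5 in treated cells against pECDC passed the filter only through their higher group. That their calls held is therefore not support. Igfbp4 in iECDC against pECDC was lost in 5 of 11 alternatives and Igfbp6 in treated cells against pECDC in 6 of 11, both at unchanged direction. Signs turned only for uncalled members near 0, which were, in iECDC against pECDC, Igf1r (0.0049 without iECDC replicate 1), Pappa (0.0075 without pECDC replicate 1, and 0.014 and 0.096 without iECDC replicates 1 and 3) and Stc2 (-0.069 and -0.027 without iECDC replicates 1 and 2), and Igf1r in treated cells against iECDC (0.027 without iECDC replicate 3, 0.025 without treated replicate 2 and 0.073 without both) and against pECDC (0.012 without treated replicate 2). Over single libraries left out, Igf1r ranged from -0.070 to 0.0049 in iECDC against pECDC. It ranged from -0.041 to 0.027 in treated against iECDC and from -0.046 to 0.012 in treated against pECDC. In iECDC against pECDC, Pappa ranged from -0.167 to 0.096 and Stc2 from -0.069 to 0.28.

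Over single libraries left out, members called ranged from 4 to 6 of 8 tested in iECDC against pECDC. They ranged from 7 to 8 in treated against iECDC, with 8 to 10 tested beside 7 in the main fit. With iECDC replicate 3 and treated replicate 2 both left out, 9 of 10 were called. Against pECDC they ranged from 7 to 9, with 9 to 10 tested beside 9 in the main fit. Where more members were tested, a higher count is not added support. Pathway genes called ranged from 9 to 19, 11 to 25 and 10 to 30 over single libraries left out. All genes called ranged from 1036 to 4467, 1707 to 7001 and 2453 to 9188, beside 2258, 4061 and 4881 with all libraries. Genes tested in these fits ranged from 13956 to 14095, 13774 to 14016 and 14297 to 14413. In iECDC against pECDC the genes called dropped most without a pECDC library (1056, 1036 and 1065 for replicates 1, 2 and 3) and rose without iECDC replicate 3 (4467, with 19 pathway genes). In treated against iECDC they were 1707, 1788, 1765 and 1886 without iECDC replicates 1 and 2 and treated replicates 1 and 3, and 7001 without treated replicate 2. In treated against pECDC they were 2453, 2522, 2472 and 3181 without pECDC replicates 1, 2 and 3 and treated replicate 1, and 9188 without treated replicate 2. Leaving out both libraries that stood apart gave 8951 genes and 29 pathway genes in treated against iECDC. With all 9 libraries in the fit, 671 genes and 5 pathway genes were called in iECDC against pECDC, where the main fit called 2258 and 12, and the cause was not tested. In fits without 1 library, the fewer samples are part of the change.

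With the replicate number as a block, 5, 6 and 8 members and 1791, 3038 and 3886 genes were called. Same-numbered libraries did not deviate together (correlations from -0.243 to 0.0373), so the numbers were not taken to pair the libraries. RLE normalization moved the median log2 fold change of all genes by less than 0.1. Depth limits Igf2, Igfbp5 and Igfbp6, which have at most 60 counts in any library.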
